A study of Mus musculus with 18 samples.

Results

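The 10 miRNA strands described here come from the miR-17~92 and miR-106b~25 clusters: miR-17-5p, miR-17-3p, miR-18a-5p, miR-19a-3p, miR-20a-5p, miR-19b-3p and miR-92a-3p from miR-17~92, and miR-106b-5p, miR-93-5p and miR-25-3p from miR-106b~25. They were chosen by name, as 10 of the 1841 mature miRNAs counted. Small RNAs had been sequenced in 18 libraries, 3 for each of 6 groups, from whole cerebellum or hippocampus of male C57BL/6J mice aged 1 month. Cerebellum came from double mutants (CyrKOCdr1as671), from mice whose circular RNA Cdr1as has lost 18 nt at its miR-671 site (Cdr1as671), from knockouts of Cyrano, a long noncoding RNA (CyrKO), and from wild-type mice (WT). Hippocampus came from CyrKO and WT mice. The replicates are described as biological, and neither Cyrano nor Cdr1as RNA was measured in these small-RNA libraries, so the genotypes rest on the labels.

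Both clusters are transcribed as polycistronic precursors from which several hairpins are cut, and each hairpin gives a 5p and a 3p strand of which 1 is mostly kept. They are known as growth-promoting miRNAs induced by Myc and E2F factors, and in the brain for their role in dividing neural progenitors. Bases 2 to 8 of a miRNA, the seed, choose most of its targets. miR-17-5p, miR-20a-5p, miR-106b-5p and miR-93-5p share a seed and repress the cell-cycle inhibitor Cdkn1a. The miR-19 strands form another seed group, miR-92a-3p and miR-25-3p share a seed and repress Bcl2l11, and miR-18a-5p and the passenger strand miR-17-3p have seeds of their own.

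The mature sequences below, from RefSeq on GRCm38.p6, are shown because they group the members by seed, in capitals, and show how alike some of them are. All 10 members were found there by name.
mmu-miR-17-5p: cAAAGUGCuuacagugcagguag
mmu-miR-20a-5p: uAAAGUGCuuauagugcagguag
mmu-miR-106b-5p: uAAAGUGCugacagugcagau
mmu-miR-93-5p: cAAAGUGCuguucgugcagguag
mmu-miR-18a-5p: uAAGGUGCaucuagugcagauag
mmu-miR-19a-3p: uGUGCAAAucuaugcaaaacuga
mmu-miR-19b-3p: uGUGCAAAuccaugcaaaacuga
mmu-miR-92a-3p: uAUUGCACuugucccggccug
mmu-miR-25-3p: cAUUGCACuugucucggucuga
mmu-miR-17-3p: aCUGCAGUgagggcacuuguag

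The 6 hairpins of miR-17~92 lie within 836 bp on the plus strand at chr14:115043671-115044506 (GRCm38.p6). The 3 hairpins of miR-106b~25 lie within 498 bp on the minus strand at chr5:138165321-138165818, inside the gene of the replication factor Mcm7 and between its exons. A related cluster on chromosome X, here named after its miR-106a hairpin, carries a copy of the hairpins of miR-19b-3p and miR-92a-3p that gives the same mature sequences, so reads of these strands cannot be assigned to 1 cluster. Counted from the 5′ end, miR-17-5p and miR-106a-5p of that cluster differ at 1 base (U10A), miR-19b-3p and miR-19a-3p at 1 base (C11U), and miR-17-5p and miR-20a-5p at 2 bases (C1U and C12U). How reads were assigned to such near copies is not given in the sources used here, and reads may be split uncertainly between them.

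The tissues differed in their markers. The hippocampal miR-137-3p and miR-221-3p together took 1.47% to 1.67% of reads in hippocampus and 0.109% to 0.153% in cerebellum, while miR-206-3p, present in cerebellum, took at most 0.000675% in hippocampus and at least 0.0791% in cerebellum. Libraries held 8591172 to 15305829 miRNA reads, and levels are given in CPM, counts per 1000000 of these reads. Together the 10 strands made up 0.549% of miRNA reads in CyrKOCdr1as671 cerebellum, 0.459% in Cdr1as671, 0.720% in CyrKO and 0.715% in WT cerebellum, and 0.824% in CyrKO and 0.816% in WT hippocampus. miR-19b-3p had the most reads of the 10, with a mean of 2672 CPM over the 18 libraries (rank 52 of 1841), followed by miR-106b-5p with 1163 CPM and miR-93-5p with 675 CPM. miR-17-5p, miR-92a-3p, miR-25-3p and miR-20a-5p had close mean levels, from 407 to 474 CPM. miR-19a-3p had a mean of 345 CPM, miR-18a-5p of 158 CPM and the passenger strand miR-17-3p of 56.9 CPM (rank 296). In every one of the 18 libraries each of the 10 strands had at least 41.1 CPM, so all 10 passed the filter on low counts in each comparison.

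**Figure D1:**
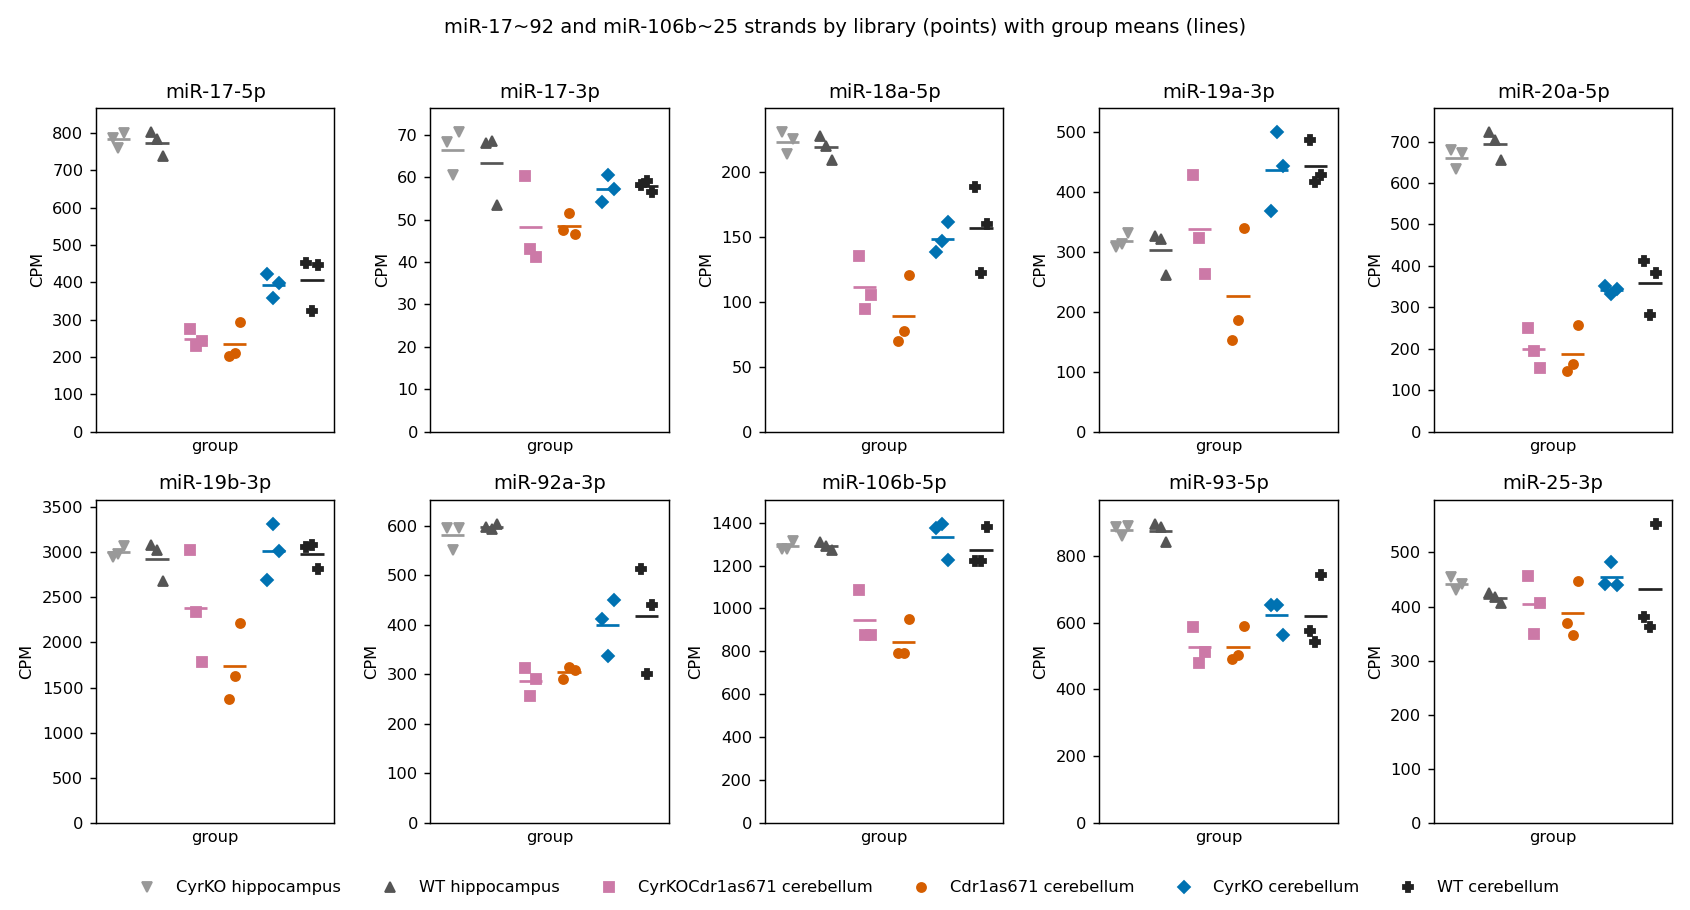
Level in CPM (vertical axis, starting at 0) of each of the 10 strands in all 18 libraries; points are libraries, lines are group means of 3. In miR-17-5p, miR-20a-5p and miR-106b-5p the 6 cerebellum libraries with the Cdr1as671 allele lie below the 6 without it, while CyrKO and WT lie close together in both tissues.

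In Cdr1as671 cerebellum all 10 strands were estimated lower than in WT, and 2 of them passed the test: miR-19b-3p and miR-106b-5p. Without the miR-671 site Cdr1as escapes slicing by miR-671, and the comparison asks which miRNAs change with it. miR-19b-3p had 1377, 1623 and 2211 CPM in the Cdr1as671 libraries, against 3057, 3076 and 2811 CPM in the WT libraries. The third Cdr1as671 library was the highest of its group, and the groups did not overlap. miR-19b-3p fell 1.76-fold (log2 change −0.81, SE 0.17, adjusted p = 0.0426 in edgeR's quasi-likelihood test with Benjamini-Hochberg adjustment, used throughout for changes).

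miR-106b-5p had 793, 790 and 950 CPM in the Cdr1as671 libraries and 1222, 1220 and 1380 CPM in the WT libraries. It fell 1.55-fold (log2 change −0.63, SE 0.12, edgeR adjusted p = 0.0307), with no overlap. miR-19a-3p, which differs from miR-19b-3p at 1 base, had 153, 187 and 341 CPM in the Cdr1as671 libraries and 487, 417 and 428 CPM in the WT libraries. Its 3 Cdr1as671 values also lay below all WT values but were spread widely, and the log2 change of −1.0 (SE 0.35) did not pass (edgeR adjusted p = 0.21). miR-20a-5p had 146, 162 and 256 CPM in Cdr1as671 libraries and 411, 280 and 382 CPM in WT libraries, with a log2 change of −0.96 (SE 0.29, edgeR adjusted p = 0.158).

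Of 665 miRNAs tested between Cdr1as671 and WT, 2.26% passed in either direction and 1.5% were lower, against 2 lower of the 10 members. The members' median log2 change was −0.72, beside −0.01 over all tested miRNAs. At an unadjusted p under 0.05, 8 of the 10 were lower, beside 137 of the 665 tested miRNAs in either direction. In 7 members (not miR-92a-3p, miR-93-5p or miR-25-3p) every Cdr1as671 library lay below every WT library in CPM, which held for 12% of tested miRNAs. Both calls were lost with RLE scaling (edgeR adjusted p = 0.101 for miR-19b-3p and 0.0617 for miR-106b-5p), where 0.602% of all passed, and without Cdr1as671 replicate 1 or 2 or WT replicate 1 or 3. Without Cdr1as671 replicate 3, 6 members passed, and 10.6% of 681 tested miRNAs were lower.

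In the double mutant the members were again estimated lower. None of the 10 passed against WT in edgeR, beside 2.57% of 662 tested miRNAs that did. At an unadjusted p under 0.05 edgeR gave 3 members, beside 127 of the 662 tested miRNAs in either direction. In DESeq2 4 members passed, where 4.68% of all were lower. miR-17-5p had 275, 229 and 241 CPM in the CyrKOCdr1as671 libraries and 452, 322 and 447 CPM in the WT libraries. The groups did not overlap, and the second WT library stood nearer to the mutants than the other two (log2 change −0.64, SE 0.15, edgeR adjusted p = 0.0788). miR-20a-5p had 250, 194 and 154 CPM in CyrKOCdr1as671 against the WT values above, again without overlap (log2 change −0.77, SE 0.22, edgeR adjusted p = 0.154). With miR-106b-5p, 3 members lay lower without overlap, against 21.8% of tested miRNAs. The median log2 change was −0.33 for the members and −0.01 for all tested miRNAs.

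Same-numbered CyrKOCdr1as671 and WT libraries deviated together (r = 0.326, 0.506 and 0.262 over 305 miRNAs). The labels state no pairing, so it rests on these correlations in the same data, and the calls with a block depend on it. With the replicate number as a block 3 members were called lower: miR-17-5p (log2 change −0.62, SE 0.10, edgeR adjusted p = 0.00677), miR-20a-5p (−0.77, SE 0.14, adjusted p = 0.0217) and miR-18a-5p (−0.41, SE 0.09, adjusted p = 0.0344). In that fit 2.87% of tested miRNAs were lower. Without WT replicate 2 and without the block, 4 members passed: miR-17-5p, miR-20a-5p, miR-92a-3p and miR-106b-5p. In that fit 4.13% of 678 tested miRNAs were lower.

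The double mutant against CyrKO shows the same Cdr1as allele where Cyrano is absent in both groups. None of the 10 members passed in edgeR, beside 2.33% of 688 tested miRNAs, while 3 passed in DESeq2, where 2.62% were lower. At an unadjusted p under 0.05 edgeR gave 4 members, beside 139 of the 688 tested miRNAs in either direction. All 10 were estimated lower with a median log2 change of −0.34. miR-106b-5p had 1085, 878 and 877 CPM in CyrKOCdr1as671 and 1375, 1396 and 1228 CPM in CyrKO (log2 change −0.45, SE 0.12, edgeR adjusted p = 0.0727). miR-17-5p, with 423, 358 and 397 CPM in CyrKO, had a log2 change of −0.61 (SE 0.18, edgeR adjusted p = 0.0972). For 5 members all CyrKOCdr1as671 libraries lay below all CyrKO libraries, against 21.1% of tested miRNAs. Leaving out Cdr1as671 replicate 3, which enters this fit through the shared scaling and spread, let 2 members pass, with 1.56% of 706 tested miRNAs lower.

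Between the double mutant and Cdr1as671, which both carry the allele, none of the 10 members passed (edgeR, 0 in DESeq2), beside 0.727% of 688 tested miRNAs. At an unadjusted p under 0.05 edgeR gave 2 members, beside 59 of the 688 tested miRNAs in either direction. All 10 log2 changes were positive, from 0.01 for miR-92a-3p to 0.67 for miR-19a-3p, with a median of 0.18. Without Cdr1as671 replicate 3, whose members stood highest in its group, 4 members were called higher in the double mutant: miR-19a-3p, miR-19b-3p, miR-18a-5p and miR-106b-5p. In that fit 7.51% of 706 tested miRNAs were higher. The interaction of the Cyrano and Cdr1as alleles passed for none of the 10 (edgeR, 0 at an unadjusted p under 0.05, 0 in DESeq2) and for 0.145% of all tested, so a different allele effect with and without Cyrano was not shown. It was 0.67 (SE 0.44) for miR-19a-3p, and without Cdr1as671 replicate 3 it passed for that strand at 1.20, beside 2.55% of tested miRNAs with a positive interaction.

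Set over both Cyrano genotypes, with 6 cerebellum libraries that carry the Cdr1as671 allele against 6 that do not, 6 of the 10 members fell. These were miR-106b-5p, miR-17-5p, miR-20a-5p, miR-92a-3p, miR-19b-3p and miR-18a-5p. In this fit 17.3% of 688 miRNAs passed and 10.2% were lower. All 10 members were estimated lower, with a median log2 change of −0.54 against −0.01 for all tested miRNAs. This comparison uses the same libraries as those above, so it is no separate evidence.

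miR-106b-5p fell 1.45-fold (log2 change −0.54, SE 0.08, edgeR adjusted p = 0.000923). miR-17-5p, at 202, 211 and 293 CPM in the Cdr1as671 libraries, fell 1.65-fold over the 12 libraries (log2 change −0.72, SE 0.12, edgeR adjusted p = 0.00286). miR-20a-5p fell 1.80-fold (log2 change −0.85, SE 0.18, edgeR adjusted p = 0.0139). In these 3 strands, which share a seed, all 6 libraries with the allele lay below all 6 without it, which held for 5.52% of tested miRNAs, and all 3 passed in every fit that left out 1 library.

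The other 3 calls were each lost in some fits that left out 1 library. miR-92a-3p averaged 286 ± 28.3 CPM in CyrKOCdr1as671, 305 ± 12.3 CPM in Cdr1as671, 399 ± 58.0 CPM in CyrKO and 417 ± 107 CPM in WT (SD, n = 3 each). It fell by 0.46 on the log2 scale (SE 0.12, edgeR adjusted p = 0.0231), and the lowest WT library lay among the mutants. miR-19b-3p fell by 0.55 (SE 0.15, edgeR adjusted p = 0.0236); its first CyrKOCdr1as671 library, at 3027 CPM, stood within the WT range. miR-18a-5p averaged 112 ± 21.4 CPM in CyrKOCdr1as671, 89.4 ± 27.5 CPM in Cdr1as671, 149 ± 11.8 CPM in CyrKO and 157 ± 33.2 CPM in WT (SD, n = 3 each), and fell by 0.61 (SE 0.17, edgeR adjusted p = 0.0343).

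The 4 members that did not pass were miR-17-3p (log2 change −0.25, SE 0.09, edgeR adjusted p = 0.0688), miR-19a-3p (−0.66, SE 0.22, adjusted p = 0.0749), miR-93-5p (−0.23, SE 0.10, adjusted p = 0.104) and miR-25-3p (−0.15, SE 0.12, adjusted p = 0.418). miR-93-5p and miR-25-3p come from the same precursor as miR-106b-5p. miR-25-3p had 347 to 457 CPM in the libraries with the allele and 362 to 553 CPM in those without, which overlapped over most of their ranges. Leaving out 1 library at a time gave 3 to 8 members that fell, beside 55 to 161 calls among all miRNAs in either direction, with 3 members left without WT replicate 1 or 3, CyrKO replicate 3, Cdr1as671 replicate 1 or 2, or CyrKOCdr1as671 replicate 2 or 3.

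**Figure D2:**
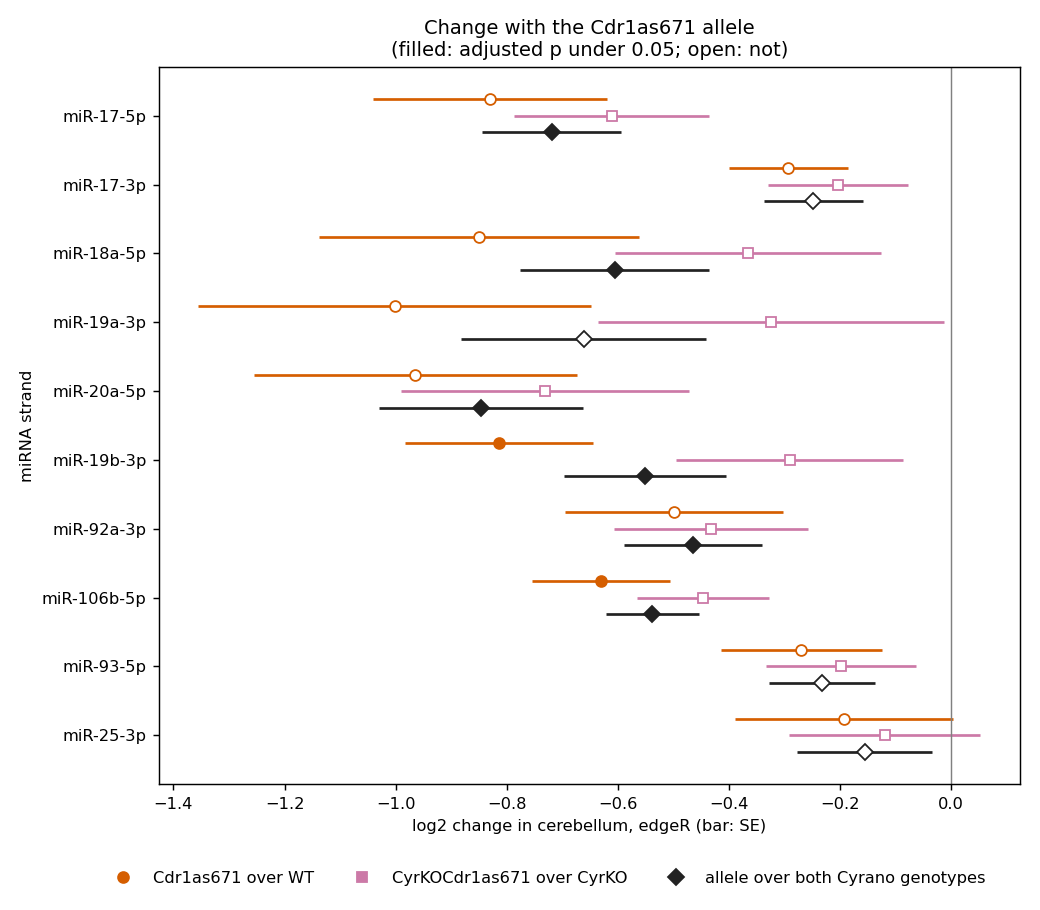
Log2 change with the Cdr1as671 allele (horizontal axis, bars are SE) for each of the 10 strands in Cdr1as671 over WT, CyrKOCdr1as671 over CyrKO, and over both Cyrano genotypes; filled points passed at an adjusted p under 0.05. All 30 estimates lie below 0, and 2, 0 and 6 of each 10 are filled. The comparison over both Cyrano genotypes uses the libraries of the other 2, so its signs are no separate evidence.

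By cluster, the summed level of the 7 miR-17~92 strands was 3612 ± 816 CPM in CyrKOCdr1as671, 2830 ± 668 CPM in Cdr1as671, 4786 ± 315 CPM in CyrKO and 4822 ± 306 CPM in WT cerebellum (SD, n = 3 each). That of the 3 miR-106b~25 strands was 1877 ± 222 CPM in CyrKOCdr1as671, 1761 ± 197 CPM in Cdr1as671, 2410 ± 159 CPM in CyrKO and 2326 ± 305 CPM in WT. By seed, the 4 strands that share the seed of miR-17-5p summed to 1920 ± 239 CPM in CyrKOCdr1as671, 1796 ± 255 CPM in Cdr1as671, 2691 ± 142 CPM in CyrKO and 2658 ± 294 CPM in WT. The highest library with the allele, at 2196 CPM, lay below the lowest without it, at 2364 CPM. The miR-19 seed summed to 2718 ± 708 CPM in CyrKOCdr1as671, 1964 ± 528 CPM in Cdr1as671, 3446 ± 379 CPM in CyrKO and 3425 ± 164 CPM in WT, with 1 CyrKOCdr1as671 library among the controls. The miR-92 seed (miR-92a-3p and miR-25-3p) summed to 690 ± 81.9 CPM in CyrKOCdr1as671 and 693 ± 54.5 CPM in Cdr1as671. It summed to 853 ± 35.8 CPM in CyrKO and 849 ± 169 CPM in WT (SD, n = 3 each), with 1 WT library, at 662 CPM, among the mutants. These sums are given as a description.

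Levels of red-cell miRNAs moved with these differences between libraries. Of 5 listed erythroid strands, 3 were in the counts used, and the miR-486 strands were not found there by name. The 3 were miR-451a, miR-144-3p and miR-144-5p, miRNAs of developing and mature red cells. Their summed level was 16004, 5405 and 10999 CPM in CyrKOCdr1as671, 783, 603 and 16205 CPM in Cdr1as671, 25051, 27991 and 16566 CPM in CyrKO, and 13913, 6326 and 32949 CPM in WT cerebellum. Cdr1as671 replicates 1 and 2 thus stood far below all other libraries, and the least abundant of the 3 strands, miR-144-5p, was at 3.51 and 2.21 CPM in them. The same 2 libraries had the lowest mean of the 10 members, 0.85 and 0.82 below the WT mean on the log2 scale.

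Cdr1as671 replicate 3, with an erythroid level inside the WT range, had a members' mean 0.28 below the WT mean. The CyrKOCdr1as671 libraries stood 0.10, 0.48 and 0.52 below it, the CyrKO libraries between −0.05 and 0.07, and the WT libraries between −0.24 and 0.12, the lowest being WT replicate 2, which also had the lowest erythroid level of its group. With the erythroid level as a covariate, 3 of 10 members fell with the allele: miR-17-5p (log2 change −0.46, SE 0.10, edgeR adjusted p = 0.0169), miR-106b-5p (−0.37, SE 0.08, adjusted p = 0.0169) and miR-20a-5p (−0.53, SE 0.14, adjusted p = 0.0488). In that fit 2.91% of all tested miRNAs were lower. Without Cdr1as671 replicates 1 and 2, miR-17-5p fell by 0.50 (edgeR adjusted p = 0.024) and miR-106b-5p by 0.39 (adjusted p = 0.0222), and no other member passed, beside 2.74% of 729 tested miRNAs that were lower. Between Cdr1as671 and WT with the covariate, the log2 change was −0.52 for miR-19b-3p (SE 0.21, edgeR adjusted p = 0.443) and −0.38 for miR-106b-5p (SE 0.11, adjusted p = 0.264). Without replicates 1 and 2, the Cdr1as671 group is the single replicate 3, assumed to vary like the other groups. It stood lower than WT by a log2 change of −0.37 for miR-19b-3p and −0.36 for miR-106b-5p, and neither passed. These 2 settings were chosen with the erythroid levels known.

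Some markers of other cells and of tissue differed with the allele in the fit over both Cyrano genotypes. In that fit 17.3% of 688 tested miRNAs passed in either direction, and none of the 3 erythroid strands did. miR-142-3p, a miRNA of blood-forming and immune cells, had 424, 207 and 307 CPM in CyrKOCdr1as671, 93.5, 106.4 and 449 CPM in Cdr1as671, 385, 552 and 349 CPM in CyrKO, and 336, 216 and 541 CPM in WT cerebellum. It was thus lowest in Cdr1as671 replicates 1 and 2, as was miR-142-5p at 30.9 and 26.6 CPM, against 82.6 to 235 CPM in WT. Of the 5 immune strands 1 fell with the allele, miR-223-3p (log2 change −0.37, SE 0.10, edgeR adjusted p = 0.0235). Their sum, most of it miR-150-5p, was 2279 to 2931 CPM with the allele and 2474 to 3256 CPM without it.

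Of 4 vessel strands 1 rose, miR-143-3p of smooth muscle, at 1792 to 2248 CPM with the allele and 1281 to 1674 CPM without it (log2 change 0.45, SE 0.07, edgeR adjusted p = 0.000923). The rest did not pass: miR-145a-5p (0.03, SE 0.06, edgeR adjusted p = 0.778), miR-126a-5p (−0.01, SE 0.09, adjusted p = 0.9335) and miR-126a-3p (−0.11, SE 0.06, adjusted p = 0.237). The endothelial miR-126a-3p had 2991 to 3481 CPM with and 3335 to 4031 CPM without the allele, and the 4 together took 0.772% to 0.890% of reads with and 0.782% to 0.884% without it. Both hippocampal markers fell within cerebellum: miR-137-3p by 0.34 on the log2 scale (SE 0.08, edgeR adjusted p = 0.0121) and miR-221-3p by 0.26 (SE 0.07, adjusted p = 0.0224), with sums of 1091 to 1205 CPM with the allele and 1360 to 1530 CPM without it. No strand of the neuronal (3), choroid plexus (5) or cerebellar (1) lists passed. Neuronal strands took 30.3% to 33.0% of reads with the allele and 30.5% to 36.8% without it, and choroid plexus strands 0.737% to 1.14% with and 0.853% to 1.05% without it. RNA integrity numbers were 8.5 to 9.5 in the cerebellum libraries with the allele and 8.9 to 9.1 in those without. The part of blood, tissue makeup and RNA quality in the members' levels was not tested further. In whole tissue, fewer cells of a type and less of a miRNA per cell cannot be told apart.

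**Figure D3:**
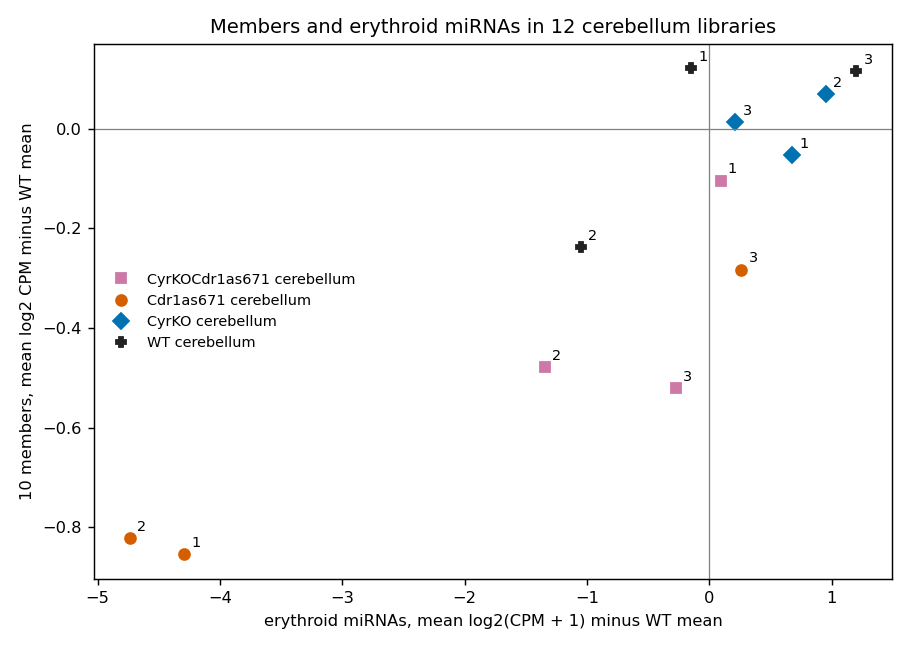
Mean log2 level of the 10 members against that of 3 erythroid miRNAs in 12 cerebellum libraries, both relative to the WT mean; points are libraries, numbers are replicates. Cdr1as671 replicates 1 and 2 lie lowest on both axes, and CyrKOCdr1as671 replicates 2 and 3 and Cdr1as671 replicate 3 lie below the CyrKO and WT libraries of like erythroid level.

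The strands of 1 hairpin did not all follow each other. miR-106b-3p, cut from the same hairpin as miR-106b-5p, averaged 74.0 ± 5.29 CPM in CyrKOCdr1as671, 75.6 ± 4.15 CPM in Cdr1as671, 73.9 ± 6.36 CPM in CyrKO and 74.2 ± 6.34 CPM in WT (SD, n = 3 each). Its log2 change with the allele was 0.02 (SE 0.07, edgeR adjusted p = 0.89). The log2 ratio of miR-106b-5p to miR-106b-3p was 3.82, 3.69 and 3.50 in CyrKOCdr1as671, 3.32, 3.37 and 3.74 in Cdr1as671, 4.37, 4.16 and 4.0 in CyrKO, and 4.19, 3.99 and 4.13 in WT. The 6 libraries with the allele thus lay below the 6 without it. No test was run on this ratio, which was singled out after its values were seen.

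The log2 ratio of miR-17-5p to miR-17-3p averaged 2.32 ± 0.26 with the allele and 2.79 ± 0.23 without it (SD, n = 6 each). The difference of −0.46 had an exact two-sided permutation p of 0.013, which did not pass over the 6 ratio comparisons made (adjusted p = 0.0779). For Cdr1as671 against WT alone it was −0.54 (exact p = 0.2), and for CyrKOCdr1as671 against WT −0.41 (exact p = 0.2), where 3 against 3 libraries cannot give a p below 0.1. The ratio of the miR-20a strands averaged 3.93 ± 0.16 with the allele and 4.56 ± 0.32 without it (SD, n = 6 each), and WT replicate 2 lay among the mutants. The ratios of the miR-18a strands, 4.03 ± 0.29 with and 3.98 ± 0.20 without the allele, and of the miR-93 strands, 3.77 ± 0.15 with and 3.92 ± 0.21 without it, overlapped (SD, n = 6 each). That of miR-19b-3p to miR-19b-1-5p, 8.68 ± 0.41 with and 9.09 ± 0.20 without the allele, also overlapped. So did that of miR-25-3p to miR-25-5p, 6.95 ± 0.31 with and 7.36 ± 0.32 without it (SD, n = 6 each).

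**Figure D4:**
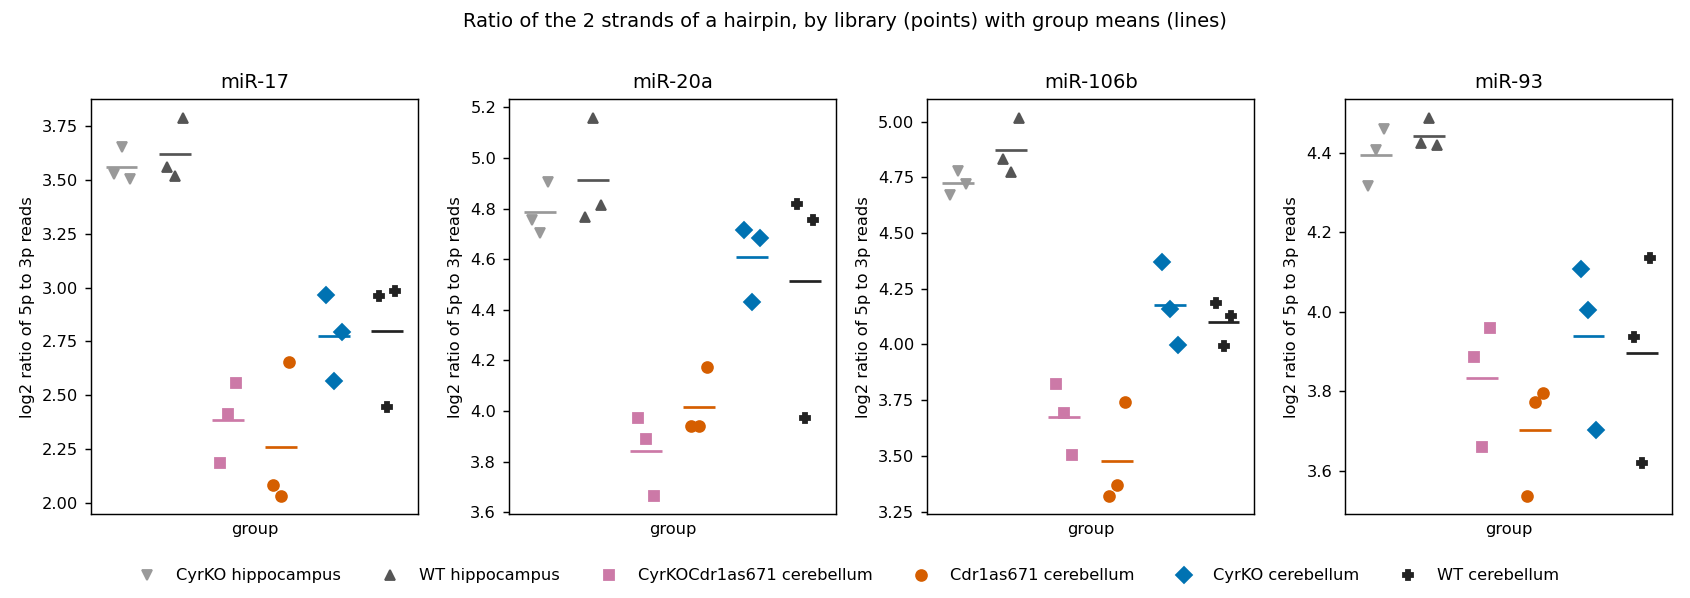
Log2 ratio of 5p to 3p reads of 4 hairpins (vertical axes do not start at 0) in all 18 libraries; points are libraries, lines are group means of 3. For miR-106b the 6 cerebellum libraries with the allele lie at 3.32 to 3.82 and the 6 without it at 3.99 to 4.37, and the hippocampus libraries are higher still.

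Of 10 further strands of the member hairpins, 7 had enough reads to be tested. With the allele 1 of them fell, beside 10.2% of 688 tested miRNAs that were lower. miR-18a-3p, the passenger of miR-18a-5p, averaged 6.40 ± 1.23 CPM in CyrKOCdr1as671, 5.71 ± 0.72 CPM in Cdr1as671, 10.3 ± 1.30 CPM in CyrKO and 9.02 ± 1.90 CPM in WT (SD, n = 3 each), with a log2 change of −0.67 (SE 0.14, edgeR adjusted p = 0.00438). The median over the 7 was −0.16. Of 8 strands of the paralogous miR-106a cluster, 4 were tested and none passed (edgeR), with log2 changes from −0.33 to −0.19. miR-106a-5p averaged 2.17 ± 0.45 CPM in CyrKOCdr1as671, 2.40 ± 0.88 CPM in Cdr1as671, 2.85 ± 0.44 CPM in CyrKO and 2.48 ± 0.66 CPM in WT, far under the 407 ± 73.8 CPM of miR-17-5p in WT (SD, n = 3 each). miR-20b-5p had a log2 change of −0.33 (SE 0.17, edgeR adjusted p = 0.179) and miR-363-3p of −0.23 (SE 0.22, adjusted p = 0.502). miR-92b-3p, which carries the seed of miR-92a-3p but is encoded elsewhere, had 515 ± 35.4 CPM in CyrKOCdr1as671, 622 ± 101 CPM in Cdr1as671, 571 ± 75.3 CPM in CyrKO and 543 ± 46.6 CPM in WT (SD, n = 3 each), with a log2 change of 0.03 (SE 0.08, adjusted p = 0.874).

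Across the 12 cerebellum libraries the members varied together. Pearson's r between the log2 level of each member and the mean of the other 9 was 0.97 for miR-18a-5p, 0.96 for miR-20a-5p, 0.95 for miR-106b-5p and for miR-17-5p, and lowest for miR-25-3p (0.68). Outside the members and their relatives, the 5 of 214 miRNAs with at least 100 CPM whose levels were most like the members' mean were miR-152-3p (r = 0.951), miR-148a-3p (0.940), miR-582-5p (0.938), miR-15b-5p (0.927) and miR-9-3p (0.910). The libraries share genotype, depth and erythroid level, so these values are a description. All 5 were picked by likeness, in these same libraries, to members estimated lower with the allele. Their own change with the allele is thus no separate evidence and is given without a p. It was −0.28 (SE 0.07) on the log2 scale for miR-152-3p, −0.24 (SE 0.07) for miR-148a-3p and −0.26 (SE 0.07) for miR-582-5p. It was −0.70 (SE 0.12) for miR-15b-5p, a miRNA of the miR-15/16 family. For miR-9-3p, a miRNA of neurons and their progenitors, it was −0.46 (SE 0.10).

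The log2 change also moved with base composition. Between Cdr1as671 and WT it correlated with the GC content of the mature strand at r = 0.331 across the 564 tested miRNAs with a RefSeq sequence (84.8%), and at 0.808 across the 10 members, which are not independent replicates. The median change was −0.11 in the third of miRNAs with the lowest GC content and 0.07 in the highest. miR-19a-3p, with the lowest GC content of the members at 34.8%, had the largest estimated difference, and miR-92a-3p, with the highest at 57.1%, had one of −0.50. Between CyrKOCdr1as671 and WT, r was −0.021 across 559 miRNAs and 0.268 across the members. For the allele over both Cyrano genotypes it was 0.230 across 582 miRNAs and 0.669 across the members. For CyrKOCdr1as671 against Cdr1as671 it was −0.256 across the same number and −0.853 across the members. The part of base composition in the members' levels was not tested.

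With loss of Cyrano alone the members were estimated close to their WT levels. In cerebellum none of the 10 passed between CyrKO and WT (edgeR, 0 at an unadjusted p under 0.05, 0 in DESeq2), beside 0.898% of 668 tested miRNAs. Their log2 changes lay between −0.08 (miR-18a-5p, SE 0.15) and 0.08 (miR-25-3p, SE 0.15), with a median of −0.01 that equals that of all tested miRNAs. miR-19b-3p averaged 3008 ± 313 CPM in CyrKO and 2981 ± 148 CPM in WT, and miR-106b-5p 1333 ± 91.4 CPM in CyrKO and 1274 ± 91.9 CPM in WT (SD, n = 3 each). No member separated CyrKO from WT libraries without overlap.

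In hippocampus none of the 10 passed between CyrKO and WT either (edgeR, 0 at an unadjusted p under 0.05, 0 in DESeq2), beside 0.57% of 702 tested miRNAs. miR-25-3p had 455, 430 and 441 CPM in CyrKO and 424, 417 and 407 CPM in WT hippocampus. Its groups did not overlap, which held in this direction for 4.84% of tested miRNAs. miR-20a-5p averaged 661 ± 25.1 CPM in CyrKO and 693 ± 34.8 CPM in WT (SD, n = 3 each), with a log2 change of −0.09 (SE 0.07, edgeR adjusted p = 0.846), the lowest estimate of the 10. The highest was 0.07 (SE 0.06) for miR-25-3p. Replicates of 1 group were close here: miR-93-5p had 887, 858 and 888 CPM in CyrKO and 896, 887 and 842 CPM in WT hippocampus. The CyrKO effect did not pass as different between hippocampus and cerebellum for any of the 10 members (edgeR, 0 at an unadjusted p under 0.05, 0 in DESeq2), beside 0.402% of 746 tested miRNAs, with differences from −0.10 to 0.08.

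The WT tissues differed in the balance of the members. Relative to all miRNAs, miR-17-5p and miR-20a-5p were higher in hippocampus than in cerebellum, and miR-19a-3p, miR-25-3p, miR-19b-3p, miR-106b-5p and miR-17-3p were lower. Most miRNAs differed between these tissues: of 746 tested, 70% passed, 37.5% higher and 32.4% lower in hippocampus, beside 2 higher and 5 lower of the 10 members. By the number called the members thus did not stand out from all miRNAs. miR-17-5p had 802, 784 and 738 CPM in WT hippocampus, and rose 1.30-fold over WT cerebellum (log2 change 0.38, SE 0.11, edgeR adjusted p = 0.00542). miR-20a-5p had 722, 703 and 655 CPM in WT hippocampus (log2 change 0.41, SE 0.11, edgeR adjusted p = 0.00379).

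miR-19a-3p had 327, 322 and 262 CPM in WT hippocampus, below all 3 WT cerebellum libraries, and fell 2.14-fold (log2 change −1.10, SE 0.12, edgeR adjusted p = 6.12e-07). miR-25-3p fell by 0.60 on the log2 scale (SE 0.12, adjusted p = 0.000352), miR-19b-3p by 0.58 (SE 0.10, adjusted p = 6.14e-05), miR-106b-5p by 0.53 (SE 0.09, adjusted p = 5.31e-05) and miR-17-3p by 0.42 (SE 0.11, adjusted p = 0.00342). In CPM, miR-106b-5p averaged 1291 ± 17.1 in WT hippocampus and 1274 ± 91.9 in WT cerebellum, and miR-19b-3p 2925 ± 216 in WT hippocampus and 2981 ± 148 in WT cerebellum (SD, n = 3 each). With library totals miR-25-3p, miR-19b-3p, miR-106b-5p and miR-17-3p did not pass. Scaling by library totals moved the median log2 change of all tested miRNAs to 0.58, against 0.03 with TMM. Relative to library totals, miR-17-5p (0.93), miR-20a-5p (0.95), miR-92a-3p (0.52), miR-93-5p (0.50) and miR-18a-5p (0.48) were higher in hippocampus and miR-19a-3p (−0.55) was lower, and all calls split into 402 higher and 126 lower, against 280 and 242 with TMM. Under both scalings miR-17-5p and miR-20a-5p were called higher and miR-19a-3p lower.

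**Figure D5:**
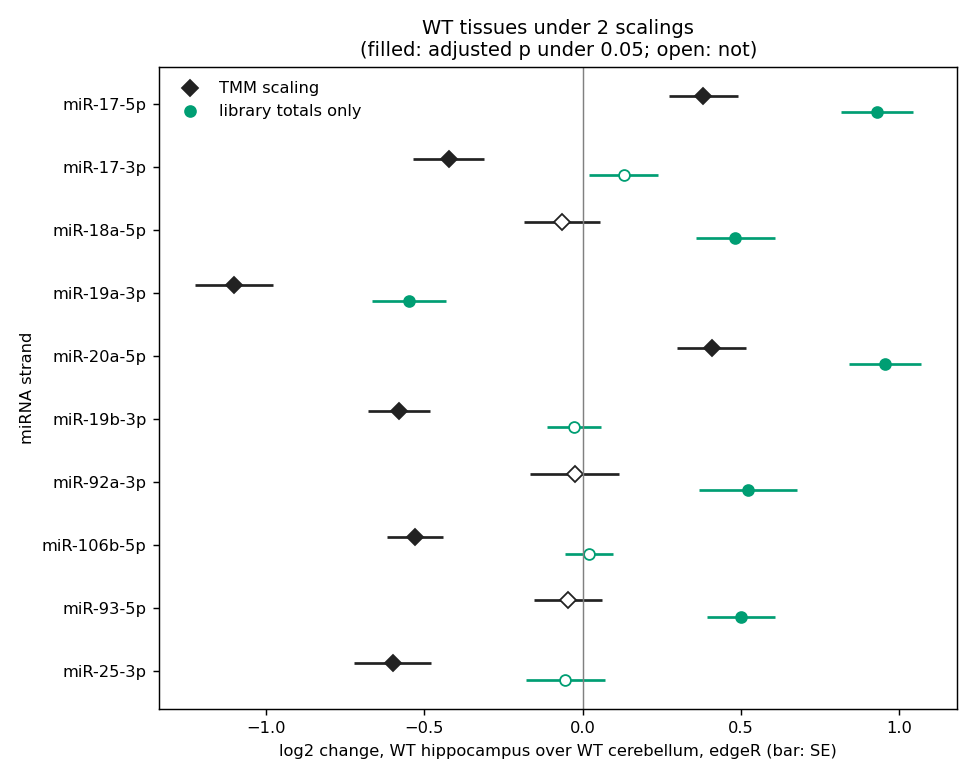
Log2 change of WT hippocampus over WT cerebellum (horizontal axis, bars are SE) for the 10 strands, scaled by TMM or by library totals only; filled points passed at an adjusted p under 0.05. Totals scaling moves each estimate up, and miR-17-5p, miR-20a-5p and miR-19a-3p keep their side of 0 and their call.

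Between WT tissues the ratio within a hairpin does not depend on that scaling. The log2 ratio of miR-17-5p to miR-17-3p averaged 3.62 ± 0.15 in WT hippocampus and 2.80 ± 0.30 in WT cerebellum (SD, n = 3 each), without overlap (exact two-sided permutation p = 0.1, the smallest that 3 against 3 can give, adjusted p = 0.3 over 6 ratio comparisons). That of miR-106b-5p to miR-106b-3p averaged 4.87 ± 0.13 in WT hippocampus and 4.10 ± 0.10 in WT cerebellum (SD, n = 3 each). Of 8 tested further strands of the member hairpins, 4 were lower in WT hippocampus with TMM: miR-106b-3p (log2 change −1.30, SE 0.11, edgeR adjusted p = 1.69e-08), miR-93-3p (−0.59, SE 0.10), miR-18a-3p (−0.87, SE 0.18) and miR-19a-5p (−1.92, SE 0.40). In CPM, miR-93-3p averaged 40.2 ± 1.35 in WT hippocampus and 41.3 ± 3.42 in WT cerebellum (SD, n = 3 each). miR-19a-5p had very few reads, at 0.575 ± 0.248 CPM in WT hippocampus and 1.52 ± 0.151 CPM in WT cerebellum (SD, n = 3 each). Of the strands encoded elsewhere with the seed of miR-92a-3p, miR-92b-3p was higher by 0.91 on the log2 scale (SE 0.09, adjusted p = 1.97e-07) and miR-32-5p lower (−0.37, SE 0.12, adjusted p = 0.0104). Of the 4 tested strands of the miR-106a cluster none passed between the WT tissues in edgeR. Unlike the ratios, these calls depend on the scaling. Of all 14 related strands tested, 1 was higher and 5 were lower with TMM. With library totals 4 were higher and 2 were lower.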

How the data were processed

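Libraries were made from 5 ug of Trizol RNA of frozen tissue with a size selection of 18 to 32 nt, per the labels' protocols. cutadapt and DESeq2 1.10 appear in the submitters' processing notes. How reads were assigned to miRNAs, with which annotation and genome build, is not given in the sources used here. Deposited by the authors were 4 tables, 1 per mutant group and tissue, with counts of reads per mature miRNA and library, which were used as raw counts. The log2 fold changes and p-value columns are the authors' own, per the file headers, and were not used for results here. Another 24 deposited columns of normalised values were not used. WT cerebellum counts were identical in 3 tables and entered once. Coordinates and sequences are from RefSeq on GRCm38.p6, and Mcm7 exons from GENCODE.

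Counts were fitted with edgeR 4.0.16 in R 4.3.3: filterByExpr (minimum count 10, minimum total 15), TMM, robust quasi-likelihood F-test, Benjamini-Hochberg adjustment over all tested miRNAs, threshold 0.05. Comparisons with WT of 1 tissue used their 6 libraries; the other cerebellum comparisons used all 12 cerebellum libraries in 1 fit, and the WT tissues and the tissue difference used the 12 CyrKO and WT libraries. DESeq2 1.42.0, RLE scaling, library totals, no filter, a replicate block, an erythroid covariate and leaving out libraries were alternatives. The fits were tested on simulated data. Ratios of strands were compared by exact permutation in scipy 1.17.1. Libraries of 8591172 to 15305829 reads make 3 reads at most 0.349 CPM, so for these members the spread between samples, not counting error, limits precision. The edgeR p-values set a change against that spread, estimated over the groups of a fit with information shared among miRNAs.

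Same-numbered libraries count as paired only for CyrKOCdr1as671 and WT cerebellum, where each pair's deviations from the group means correlated above 0.1 (r = 0.326, 0.506 and 0.262 over 305 miRNAs); the labels do not state a pairing. Named are the 10 members, related strands past the threshold with 4 fixed examples, and the 5 miRNAs most like the members' mean; miR-106b-3p was named after its values were seen. The members and lists were chosen with earlier results of these data known. miR-142 strands of the immune list carry their older names in the tables.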

Additional observations from a re-analysis of the deposited data

How the results depend on the processing

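All counts here are at an adjusted p under 0.05. For Cdr1as671 against WT, 2 members were called (15 of all miRNAs). RLE scaling gave 0 (4), no low-count filter 4 (53), DESeq2 5 (30), the replicate block 6 (42), the erythroid covariate 0 (1), and all 12 libraries in 1 fit 42 of all. Leaving out Cdr1as671 libraries 1 and 2 gave 0 (1), but leaves 1 Cdr1as671 sample, whose spread is taken from the other groups. For CyrKOCdr1as671 against WT, with 0 members (17), library totals gave 2 (31), no filter 2 (61), DESeq2 4 (50), the replicate block 3 (35) and the erythroid covariate 2. For CyrKOCdr1as671 against CyrKO, with 0 members (16), library totals gave 2 (25), no filter 1 (26), DESeq2 3 (35), the replicate block 1 and the erythroid covariate 2. For CyrKOCdr1as671 against Cdr1as671, with 5 of all, library totals gave 8. For the allele over both Cyrano genotypes, with 6 members (119), the erythroid covariate gave 3 (35) and leaving out Cdr1as671 libraries 1 and 2 gave 2 (52); the replicate block gave 5 and DESeq2 8 members. The interaction, with 1 of all, gave 4 without a filter, 4 in DESeq2 and 0 with the replicate block, and the tissue difference of the CyrKO effect, with 3 of all, gave 5 in DESeq2. Leaving out 1 library at a time, members (all) ranged from 0 to 6 (0 to 112) for Cdr1as671 against WT, 0 to 4 (6 to 58) for CyrKOCdr1as671 against WT, 0 to 2 (2 to 26) against CyrKO, 0 to 4 (5 to 59) against Cdr1as671, 3 to 8 (55 to 161) for the allele, and 0 to 1 (0 to 19) for the interaction. They stayed at 0 members for CyrKO against WT in cerebellum (6 of all) and hippocampus (4 to 7) and for their difference (2 to 4), and at 7 (490 to 536) for the WT tissues. The log2 ratio of miR-17-5p to miR-17-3p ranged from −0.74 to −0.43 for Cdr1as671, −0.59 to −0.31 for CyrKOCdr1as671, −0.20 to 0.0812 for CyrKO in cerebellum and −0.11 to 0.0229 in hippocampus, each against WT, 0.65 to 0.92 for the WT tissues and −0.53 to −0.41 for the allele. Between WT tissues 5 members changed sign with library totals: miR-106b-5p to 0.0196, miR-17-3p to 0.13, miR-18a-5p to 0.48, miR-92a-3p to 0.52 and miR-93-5p to 0.50, since the scaling moved the median of all miRNAs. For other changes the cause was not tested. Outside CyrKOCdr1as671 against WT some same-numbered libraries also correlated above 0.1, but not every pair of a comparison did. The labels state no pairing for any of them.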
